A study of Mus musculus with 32 samples.

Results

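The 98 cytochrome P450 genes described here are the mouse genes whose symbol in the deposited tables has the form Cyp, number, letter and number, 1 symbol excepted, out of 22490 gene symbols in all. They were chosen by symbol and not by a cut on their values, though with earlier results of these data known, and 5 of them are pseudogenes by name. The study sequenced total RNA from parts of the mouse digestive tract in 32 libraries, and each percc1-/- library has a wild-type partner of its own part and stage, which makes 16 pairs. Small intestine gave 7 pairs, from its top part at postnatal day 1 (P1), P5 and P15 and from its bottom part at P1, P5, P10 and P20. Stomach gave 5 pairs, as the whole organ at P1 and P5 and as its bottom part at P10, P15 and P20. The 3 pairs from large bowel were colon and rectum as 1 sample at P1 and each of these organs alone at P5, and the last pair was whole gut of embryos at stage E14.5.

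In percc1-/- mice a loxP site stands in place of 1512 bp of chromosome 17 on both copies, at 25175032 to 25176543 of mm9 as the labels state it. Targeting was done in embryonic stem cells of the W4/129S6 line and the chimeras were bred with C57BL/6J, so that the mice are of mixed 129SvEv and C57BL/6 descent. The labels do not say whether libraries came from separate animals, and p-values then measure only the spread between these libraries, which may be technical.

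Cytochrome P450s are heme enzymes that insert oxygen into fat-soluble substrates, with electrons passed on by P450 oxidoreductase or, in mitochondria, by ferredoxin. Families 1 to 3 mostly oxidise drugs, plant compounds and other foreign chemicals, family 4 hydroxylates fatty acids, and other families make or break down steroid hormones, bile acids, vitamin D and retinoic acid. In the gut, enterocytes of the villus carry P450s and form an early barrier to swallowed chemicals, while the liver holds the widest set of these enzymes.

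As a check of the genotype labels, records inside the replaced positions were sought. There were 5 unnamed records of 1.22 to 2.28 FPKM inside them in 4 of 16 libraries labelled percc1-/- and none in 16 wild-type ones, which goes against the labels if the stated positions hold for the build of the files. In what follows, percc1-/- and wild type are the genotypes as labelled. Between Clcn7 and BC003965, a stretch picked once its values were known, records without a symbol stood at 5.16 to 13.9 FPKM in 5 of 5 wild-type and 0 of 5 percc1-/- stomach libraries, in 1 of 3 wild-type large bowel libraries, and in no other library. Outside stomach the labels are therefore not checked by these data. In 7 of the 16 pairs, the summed markers of liver, pancreas, stomach epithelium or enterocytes, in tissue where each is foreign, differed by over 1 log2 unit between the 2 libraries, and these are called pairs marked by another organ. Enterocyte markers summed to 461 to 804 FPKM in small intestine against 109 to 242 FPKM in stomach, and stomach epithelium markers to 144 to 1052 FPKM in stomach against 7.71 to 293 FPKM in small intestine. Records with a symbol held 16.8 to 38.1 percent of summed FPKM, and 60.2 percent in the percc1-/- bottom stomach at P15.

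Levels are given as deposited in FPKM (fragments per kilobase of transcript, scaled to the mapped fragments of the library), which is per length and allows a comparison between genes. Of the 98 genes, 57 had a mean of at least 1 FPKM in some group of region and genotype, and 15 were at 1 FPKM or more in every library that listed them. The other 41 reached at most 3.90 FPKM in any library, 25 of them never reached 1 FPKM, and 2 were listed at 0 in all 32. In 22 of the 98, some library gives no value of their own, mostly because neighbouring genes were merged into 1 record there. By region, means of 1 FPKM or more were reached by 35 of them in small intestine, 32 in stomach, 35 in large bowel and 29 in whole gut, and means of 10 FPKM or more by 7, 5, 6 and 2. The half-width of the deposited 95 percent bounds was 32.4 percent of the value (median) at 1 to 2 FPKM and 7.46 percent at 20 to 60 FPKM, so that values near 1 FPKM are imprecise.

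**Figure D1:**
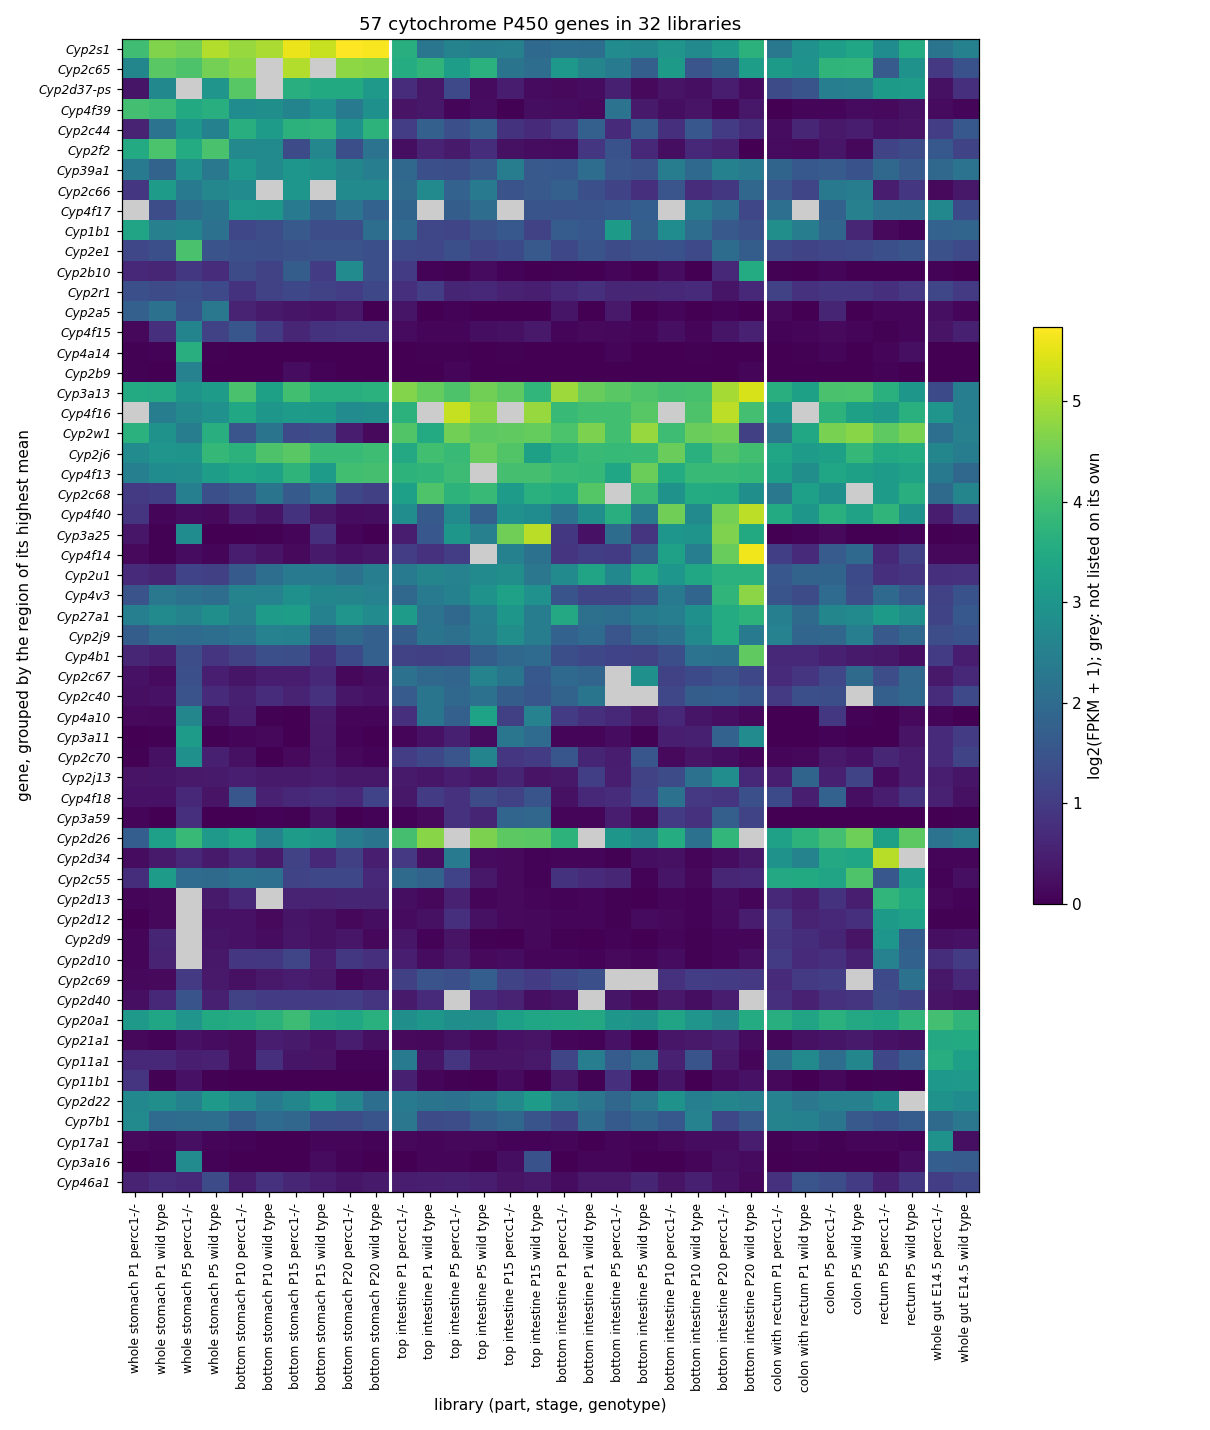
Each row is 1 of the 57 P450 genes with a group mean of at least 1 FPKM and each column 1 of the 32 libraries; the colour gives log2(FPKM + 1), and grey marks a gene not listed on its own. Cyp2s1 is at 14.7 to 52.4 FPKM in stomach and at most 11.9 FPKM in small intestine, and Cyp11a1, Cyp21a1 and Cyp11b1 are highest in whole gut.

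Of 34 enzymes of drug and foreign compound oxidation, 21 had a group mean of at least 1 FPKM. In small intestine the highest was Cyp3a13, a member of the main drug-metabolising subfamily, at 21.5 ± 7.57 FPKM (SD, n = 14), ahead of Cyp2w1, known from the fetal gut, at 17.7 ± 6.42 FPKM (SD, n = 14). In stomach it was Cyp2s1, an enzyme of epithelia, at 33.9 ± 12.5 FPKM (SD, n = 10). In large bowel Cyp2w1 was at 17.3 ± 8.58 FPKM (SD, n = 6), Cyp2d26 at 14.1 ± 5.23 FPKM (SD, n = 6) and Cyp2d34 at 13 ± 11.9 FPKM (SD, n = 5). The spans of mean and SD of these 3 overlapped, and the means were not tested against each other. Cyp1a1, the best known target of the aryl hydrocarbon receptor, reached at most 0.414 FPKM in any library.

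Of 22 genes of subfamilies 2C and 2J, pseudogenes aside, 12 had a group mean of at least 1 FPKM. They are counted here by subfamily as epoxygenases of arachidonic acid, and the activity of each gene was not looked at. Cyp2j6 was high in all 3 postnatal regions, at 14.4 ± 3.47 FPKM in small intestine (SD, n = 14), 12.2 ± 4.28 FPKM in stomach (SD, n = 10) and 10.1 ± 1.88 FPKM in large bowel (SD, n = 6). Cyp2c65 was next to Cyp2s1 in stomach, at 21.6 ± 8.29 FPKM (SD, n = 8). Of 18 fatty acid hydroxylases, 13 had a group mean of at least 1 FPKM. The highest were Cyp4f16 at 20.9 ± 8.80 FPKM (SD, n = 11) and Cyp4f13 at 13.7 ± 2.76 FPKM (SD, n = 13), both in small intestine.

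The P450s of sterols and vitamins were lower. Cyp27a1, the mitochondrial sterol 27-hydroxylase, lay between 2.83 and 12.1 FPKM in small intestine, and the oxysterol hydroxylases Cyp7b1 and Cyp39a1 between 1.26 and 4.80 and between 1.61 and 4.77 FPKM. Cyp7a1, the rate-limiting enzyme of bile acid synthesis, was at 1.13 FPKM in the percc1-/- stomach at P5 and at 0.265 FPKM or less in the other libraries. Among vitamin D enzymes, Cyp2r1, a 25-hydroxylase, lay between 0.25 and 1.64 FPKM, Cyp27b1, which makes the active hormone, reached 1.18 FPKM, and Cyp24a1, which breaks it down, was listed at 0 in every library. The retinoic acid hydroxylases Cyp26a1 and Cyp26c1 reached 0.896 and 0.468 FPKM. Cyp20a1, an orphan with no assigned substrate, was between 5.50 and 15.2 FPKM in all 32 libraries.

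The comparison of percc1-/- with wild type asks which of the 98 P450 genes differ with the deletion, and none of those tested passed. Over all 16 pairs, 0 of the 22 P450 genes tested had an adjusted p under 0.05 (limma with the pair as block, Benjamini-Hochberg over all genes), where 0.887 percent of 13084 genes passed. The genes tested are those with a mean of at least 1 FPKM and a value in every library of the fit, not all 98. Within regions the counts were 0 of 26 in small intestine, where 0.117 percent of all genes passed, 0 of 27 in stomach, where 0.0226 percent passed, and 0 of 28 in large bowel, where 0.015 percent passed. The difference in genotype effect between stomach and small intestine passed for 0 of 25, against 0.0153 percent of all genes. At an unadjusted p under 0.05 these 5 fits gave 4, 2, 2, 6 and 0 P450 genes. Those are 18.2, 7.69, 7.41, 21.4 and 0 percent of the P450 genes tested, beside 13.2, 10.1, 4.60, 9.96 and 4.69 percent of all genes. Over all pairs, differences ran from -0.36 to 0.39 on the log2(FPKM + 1) scale, with 8 above and 14 below 0. Over these 22 genes the bounds of the 95 percent intervals ran from -0.65 to 0.73.

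Cyp1b1, which oxidises estradiol and polycyclic hydrocarbons, had the lowest p over all pairs. In small intestine its percc1-/- libraries ran from 1.30 to 7.72 FPKM (median 2.2) and its wild-type libraries from 1.20 to 3.17 FPKM (median 1.69). The groups overlapped, with the highest percc1-/- values in the bottom part at P5 and P10. Over all pairs it was higher in the percc1-/- library of 12 of 16 (log2 difference 0.37 ± 0.13, SE, limma adjusted p = 0.207).

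Cyp4f40, a fatty acid hydroxylase by family, and Cyp39a1 were also higher in 12 of 16 pairs, by 0.39 and 0.24 on the log2 scale (limma adjusted p = 0.286 and 0.258). The epoxygenase gene Cyp2c44 was higher in 4 of 16 pairs, with a log2 difference of -0.36 (limma adjusted p = 0.251). Of these 4 genes, 3 lie on chromosome 17, which carries the deletion, and 4 of the 22 genes tested do. In mm9, Cyp4f40 is 7621 kb, Cyp39a1 18629 kb and Cyp1b1 54931 kb from the replaced positions as the labels state them. These distances hold only if the stated positions do. The shared chromosome was noticed after the values were seen, and a part of linked 129 sequence in these differences was not tested.

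In stomach the lowest p was that of Cyp2f2, an enzyme best known from airway club cells. Its percc1-/- libraries of P1, P5, P10, P15 and P20 were at 10.3, 10.6, 5.51, 1.53 and 1.60 FPKM and its wild-type libraries at 16.4, 16, 5.65, 5.28 and 3.53 FPKM. After rescaling it was higher in percc1-/- in 1 of 5 pairs (log2 difference -0.60, limma adjusted p = 0.988), and the groups overlapped.

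In large bowel, the drug oxidiser gene Cyp2d26 was at 8.69, 15.3 and 8.63 FPKM in percc1-/- colon with rectum, colon and rectum, and at 12.1, 21.2 and 18.7 FPKM in wild type. Cyp2c55, of subfamily 2C, was at 10.1, 9.20 and 1.94 FPKM against 10.1, 16.8 and 7.91 FPKM. Both were lower in percc1-/- in 3 of 3 pairs after rescaling (log2 differences -0.69 and -0.86), as were Cyp11a1, Cyp2s1 and Cyp2c67, and Cyp4f40 was higher in 3 of 3 (0.49). This list is not complete, as Cyp2w1 was also lower, and Cyp39a1 and Cyp4v3 higher, in 3 of 3. None of the 28 genes tested passed the adjustment (limma adjusted p = 0.362 for Cyp2d26 and 0.461 for Cyp2c55).

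**Figure D2:**
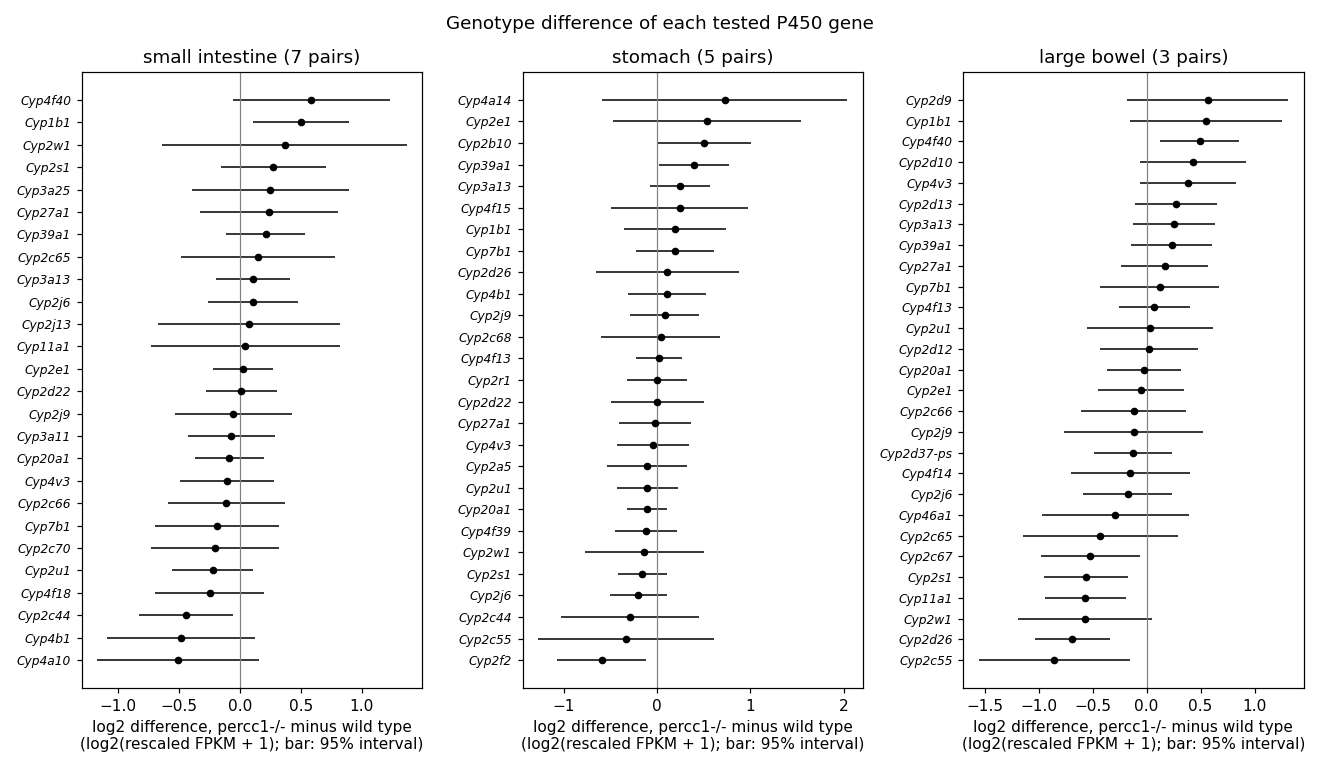
Points give the log2 difference, percc1-/- minus wild type, of each P450 gene tested in small intestine (7 pairs), stomach (5 pairs) and large bowel (3 pairs), and bars its 95 percent interval. Small intestine points lie between -0.51 and 0.59, and no gene passed the adjusted test in any panel.

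Of the genes listed around the P450s, 1 of 12 tested under the partners fell in percc1-/- over all pairs, Tbxas1 (log2 difference -0.64, limma adjusted p = 0.00126). Tbxas1, the thromboxane synthase, is also a P450 under another symbol and so is not among the 98. Of 19 regulators of P450 genes and 26 conjugation enzymes and transporters tested, 0 passed.

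The comparison of stomach with small intestine asks where along the tract each P450 is found, over both genotypes with stage in the model. The P450 genes were divided between the organs: 7 of 25 tested were higher in stomach and 7 lower. Of all 13047 genes, 48.3 percent passed (26 percent higher, 22.3 percent lower), and the P450 share of 56 percent is near that background. Of the drug oxidisers 3 were higher and 3 lower, of the epoxygenases 2 and 1, of the fatty acid hydroxylases 1 and 3, and Cyp39a1 alone of the sterol enzymes was higher. In whole tissue, fewer cells of a type and less RNA per cell cannot be told apart.

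Cyp2s1 ran from 14.7 to 52.4 FPKM (median 32.1) in 10 stomach libraries and from 2.92 to 11.9 FPKM (median 5.14) in 14 of small intestine. The groups did not overlap, and the log2 difference was 2.18 ± 0.16 (SE, limma adjusted p = 4.87e-10). Cyp4f39, an omega-hydroxylase of very long fatty acids known from the skin barrier, ran from 4.16 to 15.3 FPKM (median 6.40) in stomach. In small intestine 13 libraries were far lower (median of all 14, 0.153 FPKM), and the highest, at 3.57 FPKM, was the percc1-/- bottom part at P5, whose stomach epithelium markers summed to 57.6 FPKM against 10.2 FPKM in its wild-type pair. The part of stomach tissue in that value was not tested.

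Cyp4f40 went the other way, from 0.0739 to 0.829 FPKM (median 0.208) in stomach against 2.08 to 35.1 FPKM (median 5.98) in small intestine, with no overlap. The log2 differences were 2.82 ± 0.22 for Cyp4f39 and -2.84 ± 0.28 for Cyp4f40 (limma adjusted p = 1.66e-09 and 4.22e-08). Both genes stand in 1 cluster on chromosome 17 in mm9, Cyp4f39 at 32605404 to 32630265 and Cyp4f40 at 32796355 to 32813632, on the plus strand. Their promoter windows, from 250 bases before to 50 after the start of the gene (RefSeq, GRCm38.p6, plus strand, chr17:32452473-32452772 and chr17:32658636-32658935, the latter 1 of 2 windows of the gene), are printed because these neighbours took opposite organs. Capitals mark matches, on either strand, to 5 motifs searched: GCGTG (core of the Ah receptor site), AGGTCA and AGTTCA (nuclear receptor sites), CAAAGTCCA (HNF4) and AGAACA (glucocorticoid receptor).
Cyp4f39: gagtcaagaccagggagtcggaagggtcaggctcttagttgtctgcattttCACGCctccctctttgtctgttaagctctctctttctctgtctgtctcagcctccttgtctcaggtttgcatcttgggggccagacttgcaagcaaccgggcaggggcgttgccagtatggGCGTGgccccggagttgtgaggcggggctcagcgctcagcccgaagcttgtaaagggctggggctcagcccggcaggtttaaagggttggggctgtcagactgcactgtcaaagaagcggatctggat
Cyp4f40: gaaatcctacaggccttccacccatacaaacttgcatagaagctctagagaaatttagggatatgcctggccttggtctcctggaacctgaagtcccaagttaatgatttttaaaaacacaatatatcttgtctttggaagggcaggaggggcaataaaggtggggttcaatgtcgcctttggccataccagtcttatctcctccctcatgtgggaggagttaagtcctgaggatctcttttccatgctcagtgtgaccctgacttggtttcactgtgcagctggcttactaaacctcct

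The Cyp4f39 window holds 2 matches to GCGTG, which is common, in 35.2 percent of all genes with a window. None of the 5 is found in the Cyp4f40 window.

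Cyp2f2 ran from 1.53 to 16.4 FPKM (median 5.58) in stomach and from 0 to 1.74 FPKM (median 0.393) in small intestine, an overlap made by the percc1-/- bottom intestine at P5 (log2 difference 2.43 ± 0.23, limma adjusted p = 2.86e-08). Of subfamilies 2C and 2J, Cyp2c44 and Cyp2c55 were higher in stomach by 1.58 and 1.03 on the log2 scale. Cyp2b10, a target of the receptor CAR, was higher by 0.65 (limma adjusted p = 0.0435), a call lost in 20 of 22 fits that each left out 1 library. Cyp39a1 was higher by 0.59, a call lost after the pairs marked by another organ were left out (limma adjusted p = 0.297).

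Lower in stomach besides Cyp4f40 were Cyp3a25, Cyp2w1, Cyp2u1, Cyp3a13, Cyp4b1 and Cyp2j6. Cyp3a13 ran from 6.81 to 16 FPKM (median 10.8) in stomach against 12.7 to 41.2 FPKM (median 19.3), and Cyp2u1, a fatty acid hydroxylase, from 0.500 to 4.52 FPKM (median 2.67) against 3.82 to 11.8 FPKM (median 5.94). Both pairs of ranges overlapped at their edges, and the log2 differences were -1.01 ± 0.13 and -1.51 ± 0.16 (limma adjusted p = 1.63e-06 and 1.68e-07). Cyp3a25, Cyp2w1 and Cyp4b1 differed by -2.33, -1.96 and -0.81. Cyp2j6 differed by -0.43, and its call was lost without rescaling (limma adjusted p = 0.0845), in wild-type libraries alone (0.417) and after the pairs marked by another organ were left out (0.532).

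**Figure D3:**
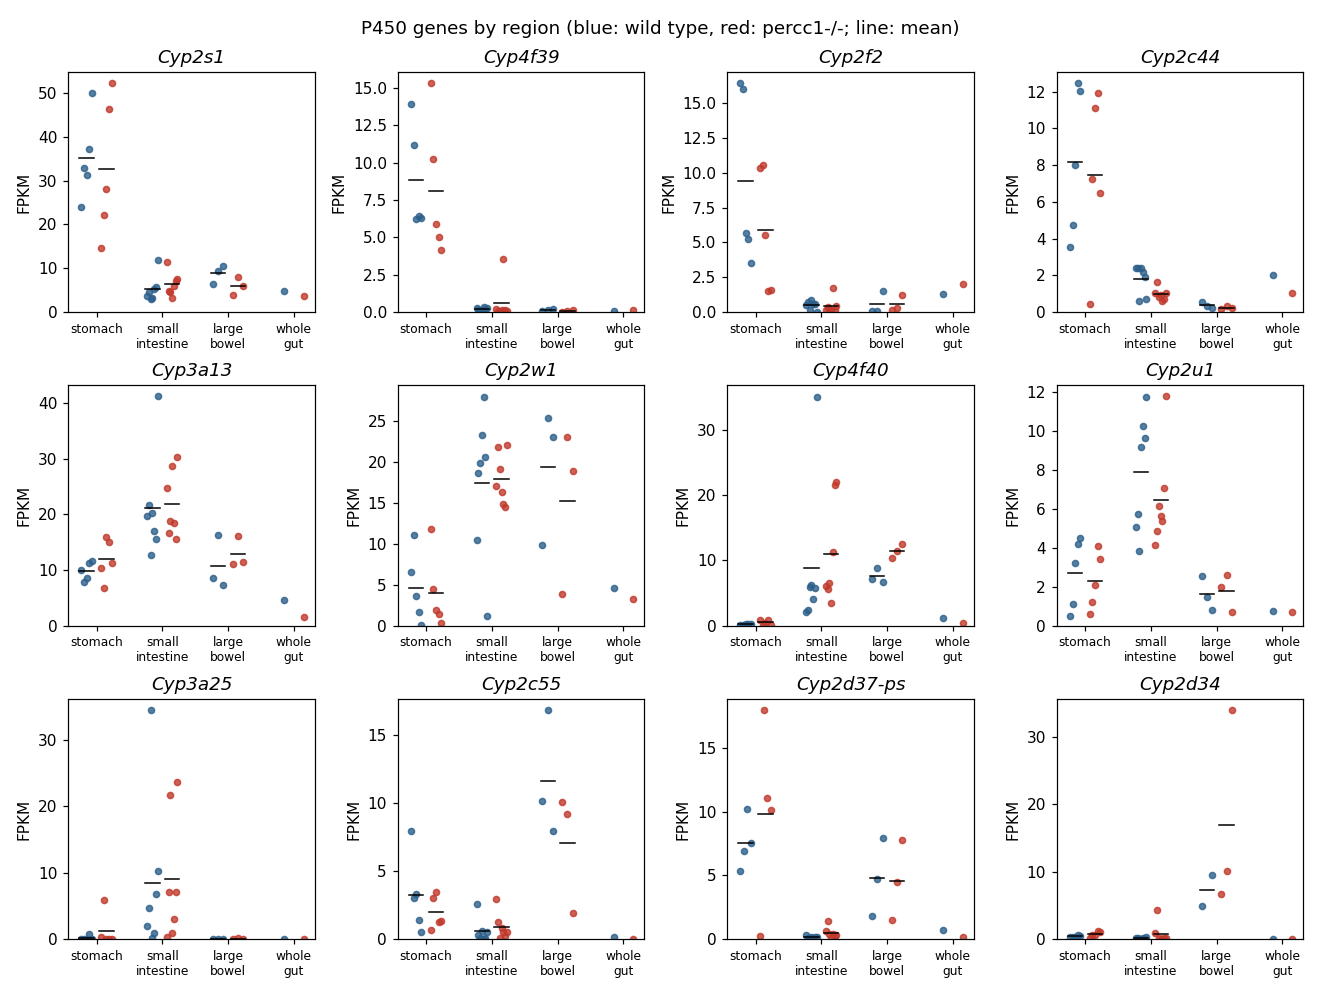
FPKM of 12 P450 genes by region, 1 point per library (blue wild type, red percc1-/-), with a line at the mean. Stomach and small intestine points do not overlap for Cyp2s1, Cyp4f39 and Cyp4f40.

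Where a gene was fitted on the libraries that list it, an alternative added after seeing the data, 24 P450 genes differed between the organs, and 48.1 percent of all genes passed. The genes this added to the 25 tested in the main fit were 3 higher in stomach, 7 lower and 1 not called. Along the Cyp2c cluster on chromosome 19, the neighbours Cyp2c55, Cyp2c65 and Cyp2c66 (mm9 positions 39081509 to 39261562) were all higher in stomach, Cyp2c65 by 1.54 and Cyp2c66 by 0.90. The next expressed genes, Cyp2c67, Cyp2c68 and Cyp2c40, were lower, by -1.39, -2.03 and -1.24. Cyp2c68 ran from 0.952 to 4.55 FPKM (median 1.85) in 10 stomach libraries and from 6.26 to 17.7 FPKM (median 10.6) in 13 of small intestine, with no overlap. In the Cyp4f cluster, Cyp4f16 (-1.69), Cyp4f14 (-2.16) and Cyp4f13 (-0.71) were lower in stomach, on the side of Cyp4f40. These genes are close copies of each other, so that the counting can have moved reads between them.

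The regulators differed in the same comparison. Of 19 tested, 10 were lower in stomach, among them Nr1i3 (CAR, -3.24), Vdr (-2.63), Nr5a2 (-2.46) and Nr1h3 (-1.94), and 3 were higher, Rarb (1.41), Ahr (0.42) and Nfe2l2 (0.28). Their median difference was -0.81, against 0.02 over all genes. Of 12 partners, 5 were higher and 2 lower, with Por, the common electron donor, at 0.27. Ptgis, the prostacyclin synthase and also a P450 under another symbol, was at 1.24. Of 26 conjugation enzymes and transporters, 10 were higher (Gstm5 by 4.04, Sult1c2 by 3.26) and 9 lower (Ugt2b5 by -2.39, Abcb1a by -2.18).

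Large bowel was compared with bottom intestine at P1 and P5, the stages both have. Of 25 tested P450 genes, 3 were higher in large bowel and 3 lower, or 24 percent, where 26 percent of all 13128 genes passed (13.5 percent higher, 12.5 percent lower). Colon markers summed to 59.6 to 117 FPKM in large bowel and 24.5 to 53.0 FPKM in the bottom intestine.

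Cyp2c55 had the greatest difference of these 6 genes. It ran from 1.94 to 16.8 FPKM (median 9.63) in 6 large bowel libraries, against 0.794, 0.599, 0.527 and 0.0368 FPKM in bottom intestine (percc1-/- and wild type at P1, then at P5). The groups did not overlap, and the log2 difference was 2.75 ± 0.43 (SE, limma adjusted p = 0.00319). The pseudogene Cyp2d37-ps was higher by 1.99 and Cyp2s1 by 0.54 (limma adjusted p = 0.0474, lost in 6 of 10 fits that each left out 1 library and, with an adjusted p of 0.240, without the pairs marked by another organ).

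Cyp2u1 ran from 0.710 to 2.61 FPKM (median 1.71) in large bowel, below the 5.64, 9.20, 5.38 and 10.2 FPKM of bottom intestine (log2 difference -1.63 ± 0.27, limma adjusted p = 0.00375). Cyp4f13 was lower by -0.69, a call lost in 3 of 10 fits without 1 library, and Cyp2j6 by -0.37 (limma adjusted p = 0.0488), lost in 9 of 10. Fitted on the libraries that list it (25.7 percent of all genes passed), Cyp2d34 was higher by 3.36, at 4.96 to 33.9 FPKM in 5 large bowel libraries against 0.0277 to 0.154 FPKM in 4 of bottom intestine.

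Some Cyp2d genes were higher in the rectum than in the other large bowel libraries. Cyp2d13 was at 12.7 and 10.3 FPKM in percc1-/- and wild-type rectum and at 0.350 to 0.782 FPKM in the other 4 large bowel libraries. Cyp2d12 was at 7.74 and 8.69 FPKM there and at 0.454 to 0.928 FPKM in the other 4. Cyp2d34 was at 33.9 FPKM in percc1-/- rectum, while the wild-type library merged it with a neighbour. It was not confined to rectum, as the other wild-type large bowel libraries held it at 4.96 and 9.47 FPKM. With rectum at 1 stage and 1 library per genotype, no test was made of rectum against colon.

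Of 20 regulators tested in this comparison, 7 were lower in large bowel, among them Nr0b2 (-2.15), Nr1i3 (-2.04) and Nr1h3 (-1.12), and 0 were higher. Por differed by -0.55, and 4 of 12 partners were lower in all. Of 28 conjugation enzymes and transporters, 4 were higher and 5 lower.

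Within small intestine, libraries of P10 to P20 were compared with those of P1 and P5, the period in which pups turn from milk to solid food, with part and genotype in the model. Of 26 P450 genes tested, 3 rose with age and 0 fell, where 5.93 percent of all 12772 genes passed (3.47 percent higher, 2.47 percent lower). At an unadjusted p under 0.05 there were 12, or 46.2 percent, beside 22.8 percent of all genes.

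Cyp3a25 ran from 0.207 to 7.15 FPKM (median 1.42) in 8 younger libraries and from 6.84 to 34.5 FPKM (median 16) in 6 older ones. The top part at P5 in percc1-/- overlapped the bottom part at P10, and the highest value was that of the wild-type top part at P15 (log2 difference 2.69 ± 0.42, SE, limma adjusted p = 0.00552). Cyp3a11, the main drug-oxidising P450 of mouse liver, ran from 0.0178 to 0.421 FPKM (median 0.0909) and from 0.388 to 5.82 FPKM (median 2.76). Both of its libraries of P10 were as low as the top of the younger range, and the rise stood in P15 and P20 (1.56 ± 0.32, limma adjusted p = 0.0155). Cyp39a1 rose by 0.58, from 1.61 to 3.16 FPKM (median 1.93) to 2.04 to 4.77 FPKM (median 4.17), a call lost in 10 of 14 fits that each left out 1 library (limma adjusted p = 0.0434).

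With the pairs marked by another organ left out, and thus only 2 younger libraries, 0 P450 genes were called. Cyp3a25 was then at 2.88 (limma adjusted p = 0.0579) and Cyp3a11 at 1.32 (limma adjusted p = 0.366). Without the wild-type top intestine at P15, Cyp3a11 was at 1.53 (limma adjusted p = 0.0552), and in wild-type libraries alone at 1.71 (limma adjusted p = 0.129). Liver markers summed to 58.5 to 79.0 FPKM in older and 82.7 to 141 FPKM in younger libraries, and enterocyte markers to 461 to 804 and 522 to 752 FPKM. The liver marker Alb was at 0.0648 FPKM in the library with 141 FPKM, the wild-type bottom part at P1. It reached at most 2.93 FPKM in small intestine, so that the liver sums there came mostly from other genes. The part of these cell types in the age differences was not tested.

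**Figure D4:**
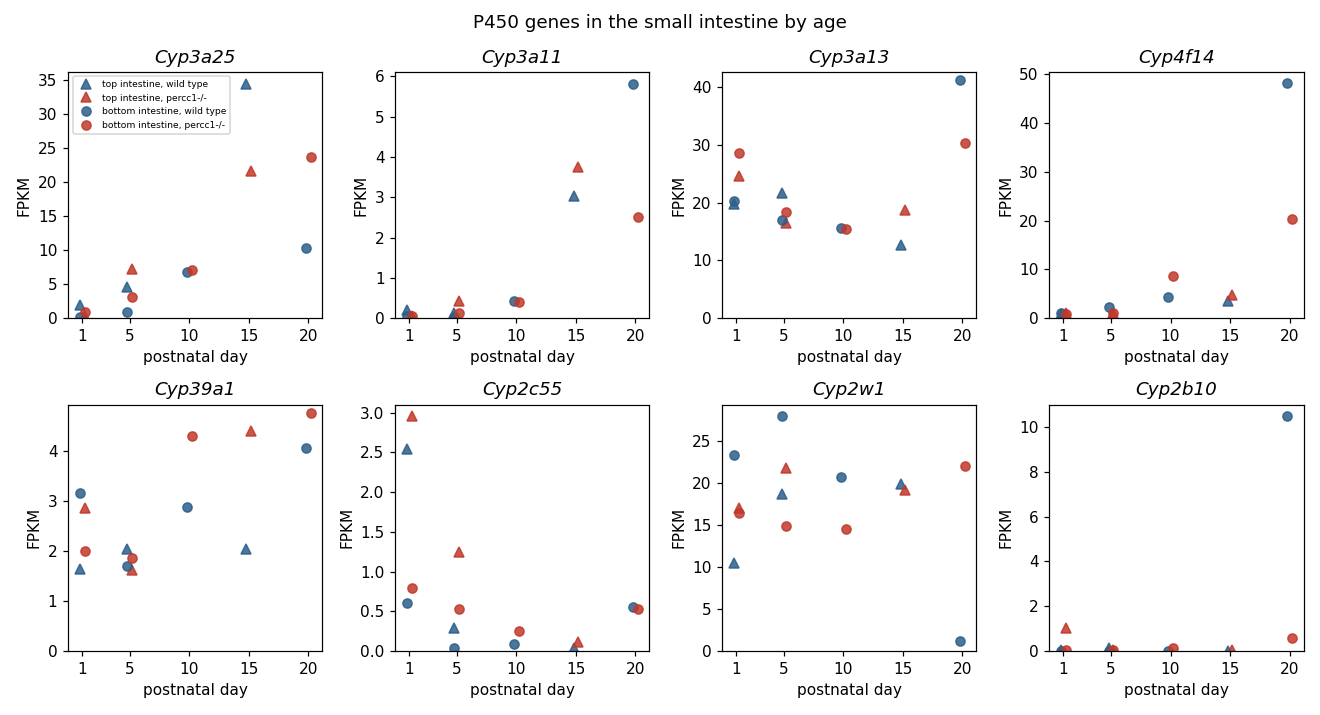
FPKM of 8 P450 genes in small intestine by postnatal day, blue wild type and red percc1-/-, triangles for the top and circles for the bottom part. Cyp3a25 reaches 34.5 FPKM at P15 in the top part, while Cyp3a13 is between 12.7 and 41.2 FPKM at all days.

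Cyp3a13, the most abundant member of the subfamily, did not pass (log2 difference -0.04, 95 percent interval -0.56 to 0.47). It lies apart from the others, at 138334160 to 138362847 of chromosome 5 in mm9, against 146666002 to 146691540 for Cyp3a11 and 146788770 to 146821194 for Cyp3a25, all on the minus strand. Their promoter windows (RefSeq, GRCm38.p6, minus strand, chr5:145879805-145880104 for Cyp3a11, chr5:146009568-146009867 for Cyp3a25 and chr5:137921570-137921869 for Cyp3a13) are printed to set the genes that rose beside the one that did not pass, with matches to the same 5 motifs in capitals.
Cyp3a11: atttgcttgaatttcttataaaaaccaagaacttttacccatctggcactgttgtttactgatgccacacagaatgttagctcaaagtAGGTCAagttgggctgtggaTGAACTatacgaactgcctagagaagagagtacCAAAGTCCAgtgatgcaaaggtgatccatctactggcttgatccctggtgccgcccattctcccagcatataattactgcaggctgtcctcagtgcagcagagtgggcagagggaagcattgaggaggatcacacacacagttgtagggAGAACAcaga
Cyp3a25: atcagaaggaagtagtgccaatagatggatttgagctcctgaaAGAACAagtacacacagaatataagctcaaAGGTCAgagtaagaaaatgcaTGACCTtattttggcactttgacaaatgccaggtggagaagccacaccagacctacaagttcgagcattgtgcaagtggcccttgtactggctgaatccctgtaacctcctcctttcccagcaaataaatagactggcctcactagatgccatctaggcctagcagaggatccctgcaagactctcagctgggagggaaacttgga
Cyp3a13: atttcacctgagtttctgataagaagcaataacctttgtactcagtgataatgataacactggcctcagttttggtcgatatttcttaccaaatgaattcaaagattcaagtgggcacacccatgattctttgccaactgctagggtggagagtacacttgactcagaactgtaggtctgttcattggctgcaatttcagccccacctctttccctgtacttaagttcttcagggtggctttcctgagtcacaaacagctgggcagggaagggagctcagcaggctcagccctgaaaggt

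The Cyp3a11 window holds AGGTCA on the strand of the gene and, further along, AGTTCA on the opposite strand. It also holds CAAAGTCCA between these and the start, and AGAACA after the start. The Cyp3a25 window holds AGGTCA on each strand and, further from the start, a match for the glucocorticoid receptor. None of these letters is in the Cyp3a13 window. Windows were matched for 70 of the 98 genes. CAAAGTCCA was found in 10 of the 70, or 14.3 percent, of which 6 are Cyp2c genes, 3 Cyp3a genes and the other Cyp8b1, against 0.555 percent of all 27025 genes with a window. The Cyp2c genes are close copies of each other, so that these matches are not independent. They include Cyp2c65, higher in stomach, and Cyp2c68, Cyp2c67 and Cyp2c40, lower there. Counted by gene, AGGTCA was in 28.6 percent of the P450 genes with a window against 18.1 percent of all genes with one, AGTTCA in 20 against 15.7 percent, AGAACA in 27.1 against 21.3 percent and GCGTG in 21.4 against 35.2 percent.

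Fitted on the libraries that list it (5.66 percent of all genes passed), Cyp4f14, a leukotriene hydroxylase, also rose with age (2.27, limma adjusted p = 0.0149), from 0.753 to 2.25 FPKM in 7 younger libraries to 3.51 to 48.2 FPKM in 6 older ones. Its neighbour Cyp4f40 had a log2 difference of 1.15 and Cyp4v3 of 1.39, both short of the threshold (limma adjusted p = 0.0608 and 0.0596). Summed by subfamily, Cyp3a genes averaged 46.7 FPKM in older and 23.8 FPKM in younger libraries, and Cyp2c genes 21.7 and 35.6 FPKM. Of the other genes, Ephx1, an epoxide hydrolase, rose (0.98) and Hmox1, which breaks down heme, fell (-1.35), while 0 of 19 regulators passed.

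The wild-type bottom intestine at P20 was the small intestine library that was most often the highest. Counted were the 43 P450 genes with a value in all 14 small intestine libraries and 1 FPKM or more in some of them. Among these it was the highest in 10 and the lowest in 5, where the other libraries were highest in 0 to 6 and lowest in 1 to 7. A pseudogene at 1.49 FPKM here and 0 in the other small intestine libraries entered the count only through this library. The share over all genes was not computed. This library held Cyp4f14 at 48.2, Cyp3a13 at 41.2, Cyp4f40 at 35.1, Cyp4v3 at 25.8, Cyp4b1 at 19.3 and Cyp2b10 at 10.5 FPKM. The percc1-/- library of the same part and stage was at 20.3, 30.3, 22.1, 12.5, 3.45 and 0.560 FPKM. For Cyp4f14, Cyp3a13, Cyp4f40 and Cyp4v3 it was the next highest of small intestine, so that high values were shared by both genotypes at P20. Cyp2w1 went the other way, at 1.13 FPKM against 22.0 FPKM. With 1 library on each side, no test was made.

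Between top and bottom intestine at P1 and P5, 0 of 24 P450 genes passed in limma, where 0.00782 percent of 12786 genes did, and 6, or 25 percent, were under an unadjusted p of 0.05, beside 6.71 percent of all genes. Cyp2c65 was at 10.8, 12.5, 8.18 and 11.7 FPKM in the top part (percc1-/- and wild type at P1, then at P5) and at 7.30, 5.09, 4.24 and 2.31 FPKM in the bottom part. These groups did not overlap (log2 difference 1.10, limma adjusted p = 0.639). Cyp4v3, a fatty acid hydroxylase, was at 2.83, 4.05, 4.77 and 6.57 FPKM and at 1.80, 1.29, 1.31 and 1.67 FPKM, again with no overlap (1.11, limma adjusted p = 0.633).

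Stomach was compared between P10 to P20 and P1 to P5. The older libraries are of the bottom part and the younger of the whole organ, so that age and part cannot be told apart. Of 27 P450 genes tested, 2 were higher in the older libraries and 6 lower, where 17.1 percent of all 13266 genes passed (8.07 percent higher, 9.07 percent lower). Without rescaling the split was 7 higher and 5 lower, with the median of all genes moving from -0.01 to 0.19. Stomach epithelium markers summed to 645 to 1052 FPKM in the older and 144 to 462 FPKM in the younger libraries.

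Among the enzymes of foreign compounds, Cyp2w1 was at 11.8, 6.58, 4.42 and 11 FPKM in the younger libraries (percc1-/- and wild type at P1, then at P5) and from 0.102 to 3.61 FPKM (median 1.51) in the 6 older ones. Cyp2f2 was at 10.3, 16.4, 10.6 and 16 FPKM and then from 1.53 to 5.65 FPKM (median 4.41). Cyp2a5, a coumarin hydroxylase, was at 2.36, 3.45, 1.72 and 3.92 FPKM and then from 0 to 0.454 FPKM (median 0.273). None of the 3 overlapped, and their log2 differences were -2.15 ± 0.39, -1.83 ± 0.27 and -1.66 ± 0.18 (SE, limma adjusted p = 0.00619, 0.00211 and 0.000772).

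Cyp1b1 was lower by -1.32 and Cyp4f39 by -1.24, and Cyp7b1 by -0.75, a call lost in 6 of 10 fits that each left out 1 library. Cyp2u1 was at 0.614, 0.500, 1.22 and 1.13 FPKM in the younger libraries and from 2.10 to 4.52 FPKM (median 3.77) in the older ones, with no overlap (log2 difference 1.13 ± 0.18, SE, limma adjusted p = 0.00355). Cyp2j6 was higher by 0.61, a call lost without either whole stomach library of P1. In wild-type libraries alone the calls of Cyp1b1 (-0.81, limma adjusted p = 0.193), Cyp2w1 (-2.06, 0.112), Cyp2j6 (0.47, 0.296) and Cyp7b1 (-0.49, 0.304) were lost. Of 26 conjugation enzymes and transporters, 12 were higher in the older libraries (Sult1c2 by 1.16, Gstt1 by 0.87) and 2 lower, and of 18 regulators 4 were higher (Nr0b2 by 0.97, Hnf4a by 0.58) and 4 lower (Ahrr by -0.95, Cebpa by -0.88).

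The percc1-/- whole stomach at P5 held P450s of the liver type. In it, 24 of the 98 genes were at 1 FPKM or more and above each of the other 9 stomach libraries. That is 26.4 percent of the 91 P450 genes it lists, beside 4.41 percent of all 22187 genes it lists, and the library was singled out after its values were seen. Cyp2e1, the ethanol oxidase, was at 16.1 FPKM against at most 1.78 FPKM in the others, and Cyp4a14, a PPAR-alpha target, at 11.2 FPKM against at most 0.0467 FPKM. Cyp3a11 was at 7.83, Cyp2c70 at 6.36, Cyp3a25 at 5.95, Cyp3a16 at 5.86 and Cyp4a10 at 5.22 FPKM. The bile acid enzymes Cyp8b1 and Cyp7a1 were at 3.62 and 1.13 FPKM, and Cyp1a2 at 1.01 FPKM. Other genes of the same roles were not highest there. Cyp27a1 was at 4.90 FPKM against at most 8.15 FPKM in the others, Cyp2a5 at 1.72 against 3.92 FPKM and Cyp4f14 at 0.137 against 0.372 FPKM. Liver markers summed to 348 FPKM in that library against 32.7 to 64.0 FPKM in the other 9, with albumin (Alb) at 38.0 FPKM against 3.23 FPKM in its wild-type pair. The part of liver tissue in these P450 values was not tested.

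**Figure D5:**
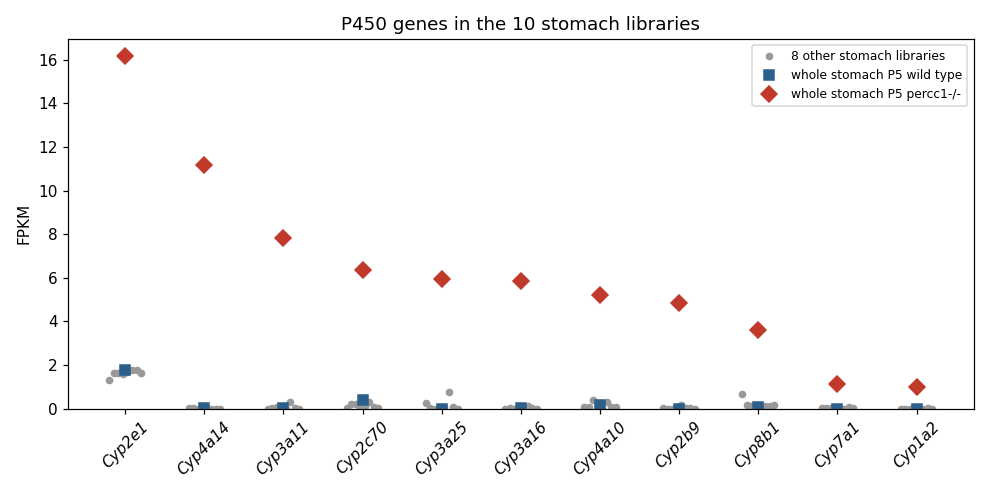
FPKM of 11 P450 genes of the liver type in the 10 stomach libraries, 1 point per library. The genes were picked from those highest in the percc1-/- library of P5, which is at 16.1 FPKM for Cyp2e1 and 11.2 FPKM for Cyp4a14.

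In whole gut at E14.5, the steroid hormone enzymes were the highest P450s after Cyp20a1. Cyp11a1, which starts steroid synthesis from cholesterol, was at 10.8 FPKM in percc1-/- and 8.38 FPKM in wild type. Cyp21a1, the 21-hydroxylase, was at 10.1 and 10.3 FPKM and Cyp11b1, the 11-beta-hydroxylase, at 7.30 and 7.52 FPKM. After birth, Cyp21a1 stayed at 0.404 FPKM or less and Cyp11b1 at 0.839 FPKM or less, while Cyp11a1 reached 5.57 FPKM in large bowel. Adrenal cortex markers, a list that includes these 3 genes, summed to 75.1 and 60.7 FPKM in whole gut against 1.77 to 21.7 FPKM in small intestine, and the other members Star and Hsd3b1 were at 8.90 and 19.3 FPKM in percc1-/- and 7.18 and 13.2 FPKM in wild type. A part of adrenal tissue was not tested.

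Cyp17a1, the 17-alpha-hydroxylase of the gonads, was the P450 gene with the greatest gap between the 2 whole-gut libraries, at 6.59 FPKM in percc1-/- and 0.172 FPKM in wild type. Lung markers also differed between these libraries, at 40.6 and 0.454 FPKM summed, and their part in the Cyp17a1 values was not tested. With 1 library per genotype, no test was made.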

How the data were processed

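Gene tables of 32 libraries were used, 1 library for each part, stage and genotype. FPKM values were made by the authors from stranded total RNA-seq with TopHat2 2.0.13, SAMtools 0.1.18, Cufflinks 2.2.1 and mm9, per the submitters' processing notes, and the tables were deposited with 95 percent bounds and no counts, so that depth per library is unknown. The annotation used is not given in these sources. Cufflinks merged some neighbours into 1 record, and such genes have no value in that library. The 98 genes, their roles, the gene lists and the comparisons were chosen with earlier results of these data known.

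FPKM was divided by library factors (median ratio over 10023 genes, 0.864 to 1.38), and log2(FPKM + 1) was fitted with limma 3.58.1 in R 4.3.3 (trended, robust) over all genes that averaged 1 FPKM or more and had a value in every library of the fit. P-values were adjusted by Benjamini-Hochberg over all genes, two-sided, with a threshold of 0.05. Such differences understate the change of low genes. Genotype was tested with the pair of part and stage as block, as the labels pair the libraries, and regions and ages with stage or part and genotype as terms. The fits were tested on simulated data. Levels in the text are as deposited.

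P450 genes averaging 1 FPKM or more in some group of region and genotype could be named, with up to 10 called each way per comparison, the 3 highest per region and members of textbook roles. Up to 4 called pathway genes each way were named, and 1 motif and 1 regulator are not reported here. Positions are of mm9, and promoter windows are from RefSeq on GRCm38.p6. The alternatives were a pseudocount of 0.1, a minimum mean of 0.1 FPKM, no rescaling, wild-type libraries only, other blocks, each pair or library left out, sums by subfamily and, added after seeing the data, fits that allow missing values and fits of regions and ages without the pairs marked by another organ. A library with a gene at 0 can be a failed estimate, since 54 of 5023 genes averaging 10 FPKM or more were at 0 in some library.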

Additional observations from a re-analysis of the deposited data

Results flagged for a closer look

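In 158 sets of values, each of 1 P450 gene in 4 to 7 libraries of 1 region and genotype, 34 times the highest or lowest library stood apart from the rest by Dixon's criterion. Each gene had a group mean of at least 1 FPKM in some group, and each set at least 1 value of 1 FPKM or more. Chance gives about 1 in 20 for libraries drawn alike, but these sets mix stages and parts. Some also met the floor of 1 FPKM only through the library that stood apart, so that this rate is no measure for the 34. The percc1-/- whole stomach at P5 held 10 of the 34, all high: Cyp2e1 at 16.1 FPKM, Cyp4a14 at 11.2, Cyp3a11 at 7.83, Cyp2c70 at 6.36, Cyp3a25 at 5.95, Cyp3a16 at 5.86, Cyp4a10 at 5.22, Cyp2b9 at 4.83, Cyp2c40 at 1.76 and Cyp2c67 at 1.64 FPKM. Apart from Cyp2e1, these genes reached at most 0.480 FPKM in the other percc1-/- stomach libraries. Their sets were thus examined only because of this library. The percc1-/- whole stomach at P1 held 4, all low. Cyp2c44 was at 0.458 FPKM there (6.48 to 11.9 in the other percc1-/- stomach libraries), Cyp2c65 at 5.18 (16.7 to 32.8), Cyp2c66 at 0.866 (4.16 to 7.02) and Cyp2d10 at 0.0766 (0.866 to 1.30). Its stomach epithelium markers, at 144 FPKM summed, were the lowest of the 10 stomach libraries. In the percc1-/- bottom stomach at P10, Cyp4f16 was high at 9.91 FPKM (5.47 to 8.06) and Cyp4f17 at 7.39 FPKM (3.16 to 4.14). In the wild-type whole stomach at P1, Cyp2j6 was low at 6.96 FPKM (13.1 to 16.5).

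The wild-type bottom intestine at P20 held 6. Cyp4f14 was at 48.2 FPKM (0.753 to 4.44 in the other wild-type small intestine libraries), Cyp3a13 at 41.2 (12.7 to 21.8), Cyp4f40 at 35.1 (2.08 to 6.19), Cyp4b1 at 19.3 (1.11 to 3.56) and Cyp2b10 at 10.5 (0 to 0.124), all high, and Cyp2w1 at 1.13 FPKM was low (10.4 to 28). Its percc1-/- partner held 3, Cyp2u1 at 11.8 FPKM (4.12 to 7.07), Cyp2j13 at 6.01 (0.289 to 1.47) and Cyp2e1 at 3.10 FPKM (1.37 to 1.72). Elsewhere in wild-type small intestine, Cyp2c55 was high in the top part at P1 (2.55 FPKM, others 0.0368 to 0.599). In the top part at P15, Cyp2d22 was at 7.96 FPKM (3.59 to 4.62) and Cyp3a16 at 1.73 FPKM (0 to 0.118), and in the bottom part at P10 Cyp2j13 was at 3.40 FPKM (0.240 to 1.15). In percc1-/- small intestine, the bottom part at P5 was high in Cyp4f39 (3.57 FPKM, others 0.0274 to 0.235) and Cyp2f2 (1.74 FPKM, others 0.116 to 0.446), and the top part at P5 in Cyp2d34 (4.24 FPKM, others 0.0277 to 0.942). The bottom part at P10 was low in Cyp2c40 (1.33 FPKM, others 2.16 to 2.77).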

How the results depend on the processing

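Of the called P450 genes, none changed direction under an alternative fitted; genes that were not called were not followed. Without rescaling, stomach by age turned from 2 higher and 6 lower to 7 higher and 5 lower. Of 171 counts of called P450 genes under an alternative, 160 stayed within 1.5 times the main one, and of 712 single-gene results 629 stayed on their side of the threshold. The 0 calls of the 5 genotype fits and of top against bottom intestine stayed 0 under every alternative fitted. For small intestine by age (3 called), a minimum mean of 0.1 FPKM gave 7, leaving out the pairs marked by another organ 0 and wild-type libraries alone 1. With 1 library left out the count ran from 2 to 5, the latter without the wild-type bottom intestine at P10. For stomach by age (8), wild-type libraries alone gave 4, and leaving out 1 library 6 to 9. For stomach against small intestine (14), a minimum mean of 0.1 FPKM gave 29 and missing values allowed 24, and leaving out 1 library 13 to 16. For large bowel (6), a pseudocount of 0.1, missing values allowed and leaving out the pairs marked by another organ gave 11 each. With 1 library left out it ran from 3, without the wild-type bottom intestine at P5, to 8. The cause of these moves was not tested.

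The labels pair libraries by part and stage. Without this replicate block, each genotype fit gave 0 calls as well. With stage by genotype as a replicate block, stomach against small intestine gave 13 calls, large bowel 4 and top against bottom intestine 0. Leaving out the pairs marked by another organ could not be fitted for stomach by age and for top against bottom intestine. The files hold no counts, and the deposited bounds limit values near 1 FPKM.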
